A study of Oryzias latipes with 4 samples.

Results

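The genes described here are the 2 alanyl-tRNA synthetases of medaka (Oryzias latipes), a small freshwater fish. They are aars, which encodes the cytosolic enzyme, and aars2, which encodes the mitochondrial one. They were chosen by model identifier, MEDAKA076973 for aars and MEDAKA026649 for aars2, and are 2 of the 93896 transcript models in the authors' table. The study measured 4 libraries in 2 groups, LD_Riboseq with 2 replicates and LD_RNAseq with 2 replicates. All came from female fish bought from a local dealer, held under SD and sampled 16 h after they were moved to LD, from a dissection that pools the ventral telencephalon, the hypothalamus and the pituitary. The labels state no strain, no age and no number of fish per library. They also leave unsaid whether replicates are separate fish, so the p-values rest on a spread between libraries that may be only technical. All groups share this 1 light condition, so the comparison is between the assays.

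Aminoacyl-tRNA synthetases attach each amino acid to its tRNA, the step that fixes the meaning of the genetic code. Animal cells run this reaction in the cytosol and again in mitochondria, which translate the few proteins of their own genome with imported synthetases encoded in the nucleus. The cytosolic alanyl-tRNA synthetase recognises its tRNA mainly through a G-U base pair in the acceptor stem. It has an editing domain that removes wrongly attached serine or glycine. In mice, a mutation that weakens this editing in the cytosolic enzyme kills cerebellar Purkinje cells, and in humans variants of AARS2 cause heart muscle disease or a loss of white matter with ovarian failure. Messenger RNAs of both enzymes are translated by cytosolic ribosomes, so footprints of both can be compared with their RNA. Ribo-seq sequences the pieces of mRNA covered by ribosomes, and RNA-seq here sequences total RNA. No base or amino acid sequence of either gene was used.

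Values are FPKM, mapped fragments scaled to model length and to library size, as the authors deposited them. They are per length, but the length over which footprints were counted is not given, so footprint levels of different genes are set side by side only as deposited. The sum of FPKM over all models was 785539 and 971256 in the Ribo-seq libraries and 698207 and 653100 in the RNA-seq libraries, and the depth itself is unknown. Tissue markers were looked up by symbol: 10 of 16 pituitary markers, 7 of 19 hypothalamic neuropeptides and 7 of 17 neuron markers had a model. The lists held alternative names, and only 11, 10 and 9 of these symbols were in RefSeq. Of the 10 pituitary markers cga, the shared subunit of the pituitary glycoprotein hormones, was the most abundant. Together the 10 summed to 2065 to 2263 FPKM in Ribo-seq and 557 to 780 in RNA-seq. These sums rest mainly on cga and pomc, the precursor of the melanocortins. prl (prolactin) was near 0, with 0.129 and 0.299 FPKM in Ribo-seq, against 0.367 and 0.114 FPKM in RNA-seq. The pituitary transcription factors pitx1 and lhx3 did not pass the test between assays (limma, adjusted p = 0.24 and 0.14). That test compares assays and does not show whether a tissue is present. The 7 hypothalamic neuropeptides with a model summed to 482 to 817 FPKM in Ribo-seq and 271 to 280 in RNA-seq, and snap25, of neuronal synapses, led the neuron list. In a mixed tissue, fewer cells of a type and less RNA per cell cannot be told apart, and which cells supply aars or aars2 was not tested.

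The cytosolic gene carried many footprints. aars (6:25020396-25034589 in the authors' coordinates with starts converted to count from 1, genome build not given; 3654 nt of transcript, strand and exons not given) had 19.6 and 34.1 FPKM in Ribo-seq replicates 1 and 2, against 13.4 and 12.4 FPKM in RNA-seq replicates 1 and 2. Both Ribo-seq libraries lay above both RNA-seq libraries as deposited, which was so for 17.7% of all tested models and for 37.5% of the tested models with a gene symbol. The mean was 26.9 ± 10.3 FPKM in Ribo-seq and 12.9 ± 0.693 FPKM in RNA-seq (SD, n = 2 each).

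The mitochondrial gene showed the opposite order as deposited. aars2 (1:231195-247631, 3604 nt) had 1.67 and 3.87 FPKM in Ribo-seq replicates 1 and 2, against 5.38 and 6.08 FPKM in RNA-seq replicates 1 and 2. Both Ribo-seq libraries lay below both RNA-seq libraries, as they did for 58% of all tested models and for 28.9% of those with a symbol. The mean was 2.77 ± 1.55 FPKM in Ribo-seq and 5.73 ± 0.50 FPKM in RNA-seq (SD, n = 2 each). In both genes Ribo-seq replicate 1 was the lower footprint library, and the libraries differ in overall scale.

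To compare assays, libraries were put on a common scale by median-ratio factors, and log2 of the scaled FPKM plus 1 was fitted over all 50625 models with a mean FPKM of at least 1. A model was called at an adjusted p below 0.05. The rule called 23.9% of all tested models higher and 33.7% lower in Ribo-seq, and 52.4% of the 5705 tested models with a symbol higher and 6.01% lower. A call in the higher direction is thus common among models that correspond to a named gene.

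After scaling, aars had 30.1 and 36.9 in Ribo-seq, against 9.57 and 9.40 in RNA-seq. On the log2 scale Ribo-seq exceeded RNA-seq by 1.71 ± 0.16 (SE; limma, adjusted p = 0.0042), or 3.28-fold on that scale, with a 95% interval of 1.25 to 2.18. The footprint libraries were apart from the RNA libraries, and aars stood above 87.8% of the named models in this difference. The call was lost without either RNA-seq library and with FPKM as deposited. In these settings fewer of all tested models were called higher as well. Without RNA-seq replicate 1 the difference was 1.72 (limma, adjusted p = 0.072) and without RNA-seq replicate 2 it was 1.70 (limma, adjusted p = 0.073). With FPKM as deposited it was 0.95 (limma, adjusted p = 0.10).

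After scaling, aars2 had 2.57 and 4.18 in Ribo-seq, against 3.84 and 4.61 in RNA-seq, so that the assays overlapped. Ribo-seq minus RNA-seq came to -0.28 ± 0.27 on the log2 scale (SE; limma, adjusted p = 0.42), with a 95% interval of -1.03 to 0.48. It did not pass the test, and the interval leaves room for a deficit of footprints as well as for a modest excess. In this difference aars2 stood above only 12.4% of the named models. Single footprint libraries move it: the difference was -0.01 without Ribo-seq replicate 1 and -0.54 without Ribo-seq replicate 2, neither past the test.

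**Figure D1:**
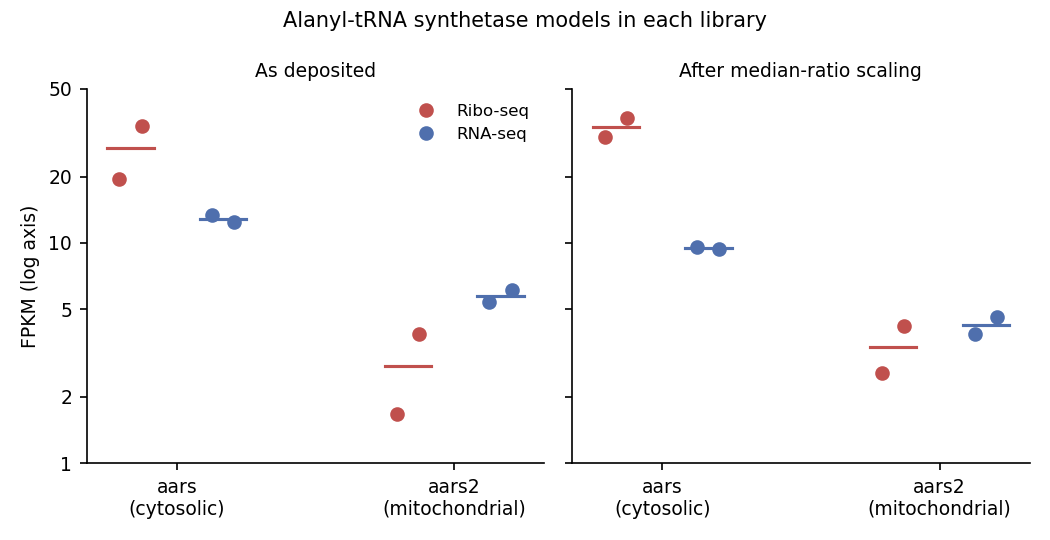
FPKM of aars and aars2 in each of the 4 libraries (log axis), as deposited on the left and after median-ratio scaling on the right. Points are libraries and bars the mean of the 2 libraries of an assay. aars lies higher in Ribo-seq in both panels, whereas the aars2 assays are apart as deposited and overlap after scaling.

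Where the models of all genes are centred changes both differences by nearly the same amount, so the place of each gene relative to other named genes is the steadier description. The median log2 difference of named models was 0.76 with median-ratio scaling, 0.45 with upper quartile scaling and 0.13 with FPKM as deposited; over all tested models these medians were -0.20, -0.49 and -0.79. The share of calls in the higher direction was 41.5%, 31.5% and 10.3% under the same settings. Relative to the named median, aars lay 0.95, 0.89 and 0.83 higher. aars2 lay below it, at -1.04, -1.05 and -1.03.

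The ratio of the enzymes within a library needs no scaling, since library size cancels. aars exceeded aars2 11.7-fold and 8.82-fold in Ribo-seq replicates 1 and 2, against 2.49-fold and 2.04-fold in RNA-seq replicates 1 and 2. In every library aars was the more abundant of the 2, and every footprint ratio was above every RNA ratio. The footprint ratio was 4.51 times the RNA ratio (log2 difference 2.17 from the deposited values). With the pseudocount of 1 the difference was 1.99 on the log2 scale (exact two-sided permutation test over libraries, p = 0.333, the smallest p that 2 against 2 libraries can give). This permutation test cannot reach 0.05 with 4 libraries. Transcript lengths of the models are close, 3654 nt for aars and 3604 nt for aars2.

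Other models in the table share the span of these genes, and their footprints can differ from those of the long model. The aars model contains MEDAKA076997 (6:25023841-25031061, 900 nt), which had 23.6 and 31.4 FPKM in Ribo-seq, against 14.6 and 11.9 FPKM in RNA-seq. These values are near those of aars itself, and the log2 difference of 1.76 ± 0.15 was called (SE; limma, adjusted p = 0.0039). MEDAKA076979 (6:25014972-25021076, 1241 nt) overlaps the first 681 nt of the aars span. It had 5.55 and 7.91 FPKM in Ribo-seq, against 3.87 and 4.04 FPKM in RNA-seq, a difference of 1.29 that was also called (limma, adjusted p = 0.0064). All models over the aars span thus lay in the same direction as aars, although most of the span of MEDAKA076979 lies outside it.

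The models over aars2 did not. MEDAKA026660 (1:232445-235736, only 243 nt) had 18.9 and 14.6 FPKM in Ribo-seq, against 8.97 and 5.31 FPKM in RNA-seq, and was called higher with a log2 difference of 1.88 ± 0.39 (SE; limma, adjusted p = 0.021). MEDAKA026643 (1:243235-245271, 906 nt) had 0.251 and 0.113 FPKM in Ribo-seq, against 3.84 and 2.88 FPKM in RNA-seq, and was called lower with a difference of -1.47 ± 0.20 (SE; limma, adjusted p = 0.0076). MEDAKA026658 (1:247067-249138, 384 nt), which extends past the end of the aars2 model, was listed at 0 in Ribo-seq replicate 1 and had 2.04 FPKM in replicate 2, against 9.43 and 5.15 FPKM in RNA-seq, a difference that was not called (limma, adjusted p = 0.092). MEDAKA026658 still lies within the RefSeq aars2 gene (1:232218-249326), of which the aars2 model covers 90.1%. Footprints over this locus were therefore high on 1 short model at low coordinates and low or absent on the models at high coordinates.

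The nested models may matter for aars2, because without strand and exons it is unknown whether they share reads with the long model. Weighted by length and added to the aars2 model, the models inside its span gave a log2 difference of -0.06 (limma, adjusted p = 0.79). Summed as FPKM, which gives the 243 nt model the same weight as the long one, they turned the difference to 1.03 (limma, adjusted p = 0.041). The same sums left aars at 1.74 and 1.79, and the log2 difference of the aars to aars2 ratio was then 1.80 weighted by length and 0.75 summed as FPKM. Both sums were chosen after the values were seen. They leave out MEDAKA026658 and MEDAKA076979, which lie only in part on the spans of the long models.

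**Figure D2:**
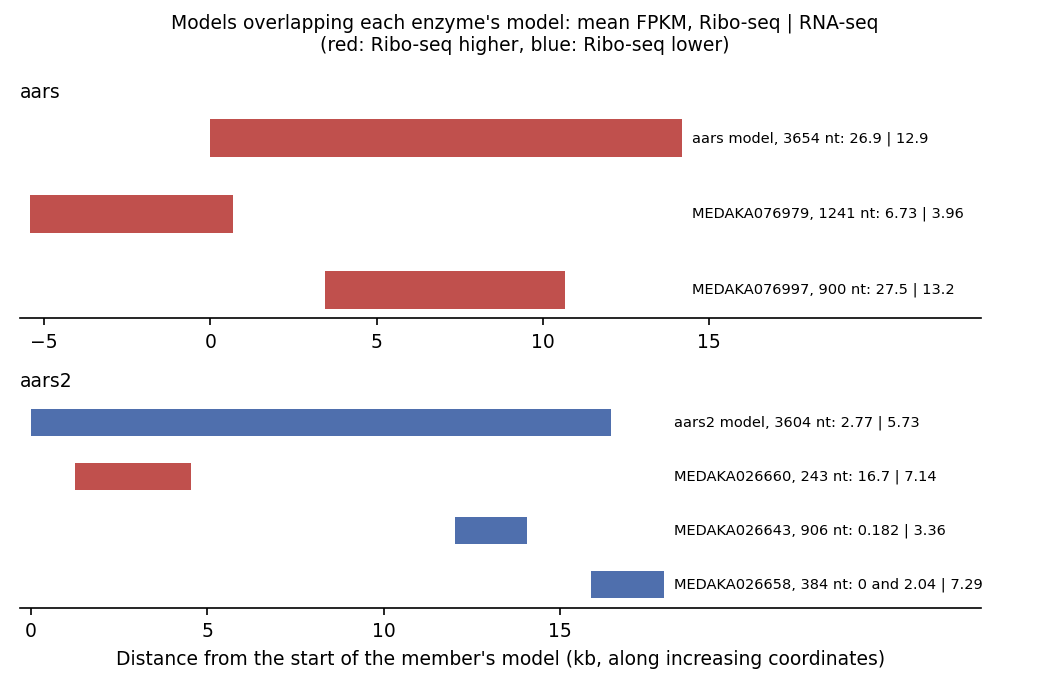
Spans of the models that overlap the aars model (top) and the aars2 model (bottom), drawn by distance in kb from the start of each enzyme's model along increasing coordinates, each with its transcript length and its mean FPKM by footprints and by RNA (for the model listed at 0 in 1 Ribo-seq library, both Ribo-seq values). Models higher in Ribo-seq are red and lower ones blue: the aars models are all red, and over aars2 the 243 nt model alone is red.

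The other synthetases were set beside this pair, in a cytosolic and a mitochondrial list drawn up by gene symbol. Whether gars, kars or another gene of the cytosolic list also encodes a mitochondrial enzyme was not considered. Of 16 cytosolic synthetase genes with a model, all were tested, 14 were called higher in Ribo-seq, 0 lower and 2 neither (limma, adjusted p below 0.05; 23.9% of all tested and 52.4% of named tested models were called higher). Their median log2 difference was 1.496, against 0.76 for named models and -0.20 for all tested models. aars ranked 6th of the 16. The largest differences were those of wars (tryptophan) at 2.05 ± 0.19, gars (glycine) at 2.02 ± 0.17 and nars (asparagine) at 1.91 ± 0.13 (SE, limma). hars (histidine), at 1.76, and eprs, which charges both glutamate and proline, at 1.75, lay within 1 SE of aars. farsa, the alpha subunit of the phenylalanine enzyme, followed at 1.62, also within 1 SE of aars, and its partner subunit farsb was at 0.96. dars (aspartate), lars (leucine), yars (tyrosine), vars (valine), qars (glutamine) and cars (cysteine) lay between 0.85 and 1.52. kars (lysine), at 0.70 ± 0.22 (limma, adjusted p = 0.058), and mars (methionine), at 0.15 ± 0.18 (limma, adjusted p = 0.53), did not pass the test.

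Among the mitochondrial synthetases aars2 had one of the lowest differences. Of 11 genes with a model 10 were tested, since wars2 was below the FPKM limit, with 0.0141 FPKM and a listed 0 in Ribo-seq and 0.327 and 0.234 FPKM in RNA-seq. Of the 10, 4 were called higher, 1 lower and 5 neither (background over all tested models 23.9% higher and 33.7% lower, over named ones 52.4% and 6.01%), with a median log2 difference of 0.24. mars2 at 1.11 ± 0.20, pars2 (proline) at 0.77 ± 0.18, yars2 at 0.76 ± 0.18 and iars2 (isoleucine) at 0.60 ± 0.15 were higher (SE, limma). rars2 (arginine) was lower at -0.59 ± 0.17 (SE; limma, adjusted p = 0.049), near the threshold. cars2 had -0.67 ± 0.20 (limma, adjusted p = 0.0503), just past it on the other side. aars2 ranked 8th of the 10, next to vars2 at -0.27 ± 0.18 (limma, adjusted p = 0.27), from which it differed by far less than 1 SE. Of the tested genes, 14 of 16 cytosolic and 2 of 10 mitochondrial ones had a difference above the named median. The medians fell to 0.77 for the cytosolic list and -0.36 for the mitochondrial list with FPKM as deposited, where 2 cytosolic genes and 0 mitochondrial genes were called higher and 0 and 2 lower, beside 2425 higher and 21141 lower of all 50625 models. With upper quartile scaling the mitochondrial median was -0.06. Without RNA-seq replicate 1 or 2, fewer genes of both lists were called higher, as were fewer of all tested models.

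**Figure D3:**
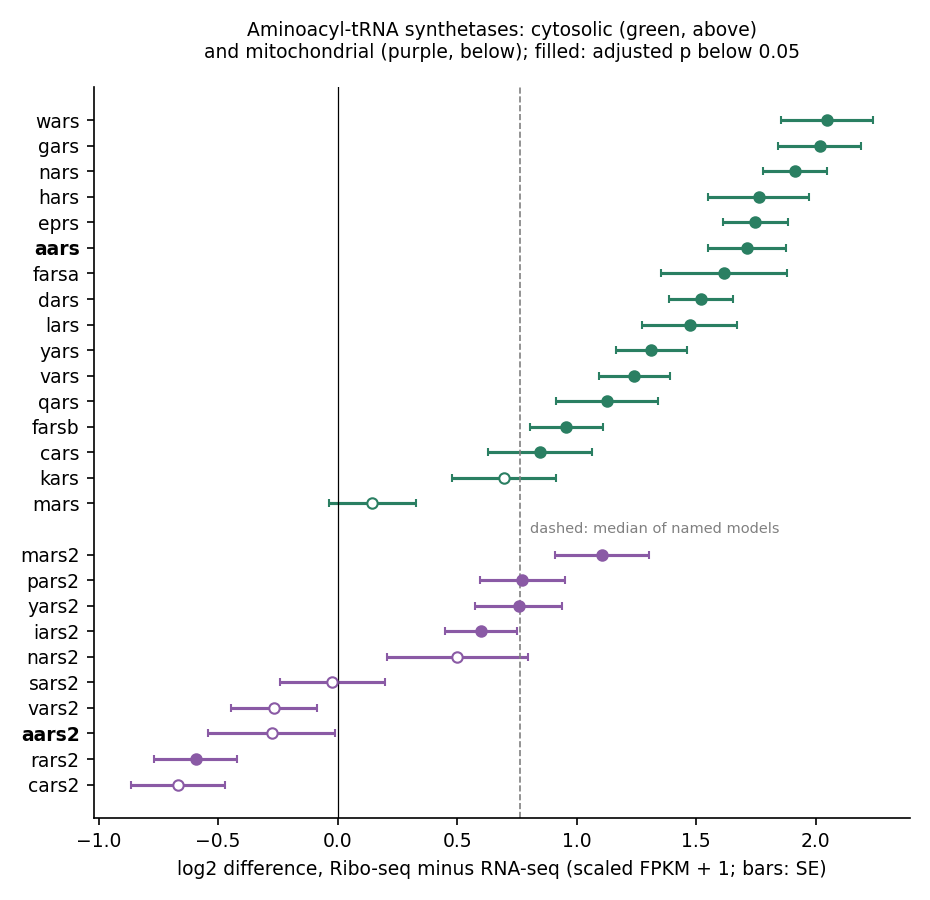
Log2 difference of Ribo-seq minus RNA-seq (scaled FPKM plus 1, x axis) for the 16 cytosolic (green, above) and 10 mitochondrial (purple, below) synthetase genes tested, with SE bars and filled points for adjusted p below 0.05. aars, at 1.71, lies in the upper part of the cytosolic genes, and aars2, at -0.28, among the lowest mitochondrial ones, on either side of the dashed median of named models.

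By level, aars was among the most abundant synthetases in both assays. By footprints its mean of 26.9 FPKM ranked 3rd of the 16 cytosolic genes, after nars at 49.9 ± 15.9 and gars at 30.1 ± 11.5 FPKM and before hars at 23.2 ± 10.6 FPKM (SD, n = 2). The means of gars, aars and hars differ by less than their SD, although within each footprint library the order was the same, with gars at 21.9 and 38.2, aars at 19.6 and 34.1 and hars at 15.7 and 30.6 FPKM. By RNA its mean of 12.9 FPKM was second to nars at 21.6 ± 0.894 FPKM, and the next were yars at 11.7, gars at 11.5 and dars at 11.4 FPKM. Both RNA libraries of aars were above both of yars (11.6 and 11.9 FPKM), by a margin smaller than 2 FPKM.

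Some genes of like RNA level differed in deposited footprint FPKM. By footprints aars2 was at 2.77 ± 1.55 FPKM and rars2 at 2.01 ± 0.606, with qars at 8.06 ± 3.61 and lars at 10.4 ± 3.88 FPKM (SD, n = 2). By RNA these 4 were close, with aars2 at 5.73, rars2 at 5.89 ± 0.112, qars at 5.40 ± 0.176 and lars at 5.46 ± 0.712 FPKM, and aars2 was 4th of the 11 mitochondrial genes. Both footprint values of qars, 5.51 and 10.6 FPKM, exceeded both of aars2. cars2 had footprints of 4.24 ± 0.989 FPKM, where aars had 26.9 ± 10.3, at RNA levels of 12.5 ± 1.90 FPKM for cars2 and 12.9 for aars. These genes were picked after their levels were seen and were not tested.

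**Figure D4:**
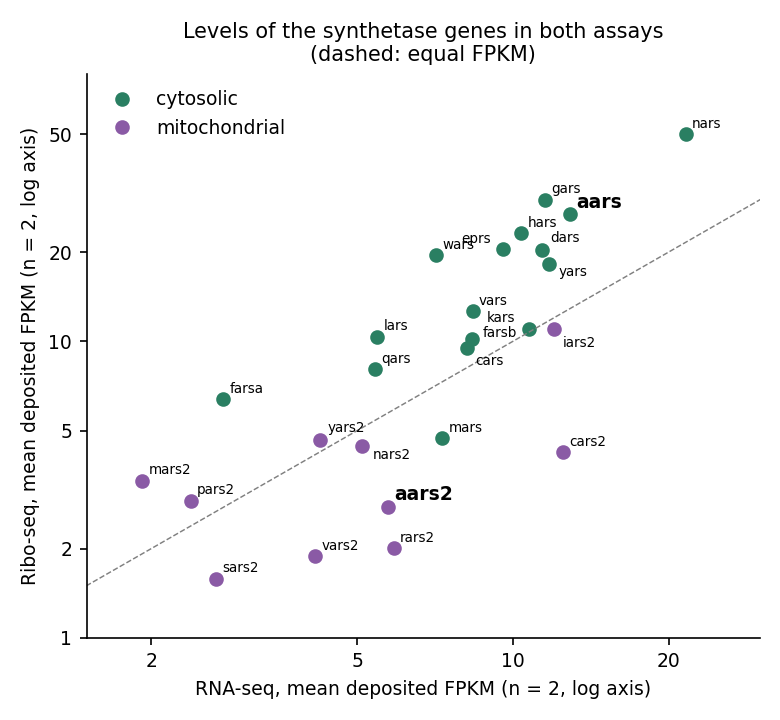
Mean deposited FPKM of each tested synthetase gene in Ribo-seq (y axis) against RNA-seq (x axis), both on log axes, with cytosolic genes in green and mitochondrial genes in purple. aars lies above the line of equal FPKM beside gars, and aars2 below it between rars2 and nars2, while qars and lars, at a similar RNA level, lie above it.

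For 6 amino acids both a cytosolic and a mitochondrial gene are reported here, and the within-library ratio of the pair can be compared. In 5 of the 6 pairs both footprint ratios were above both RNA ratios, and the alanine pair had the largest difference, 1.99 on the log2 scale with the pseudocount. How often pairs of other genes show this order was not computed, so the count is only a description. cars over cars2 was 1.80 and 2.55 in Ribo-seq, against 0.721 and 0.596 in RNA-seq, so that the mitochondrial gene was the less abundant by footprints and the more abundant by RNA. vars over vars2 was 6.80 and 6.64 in Ribo-seq, against 2.09 and 1.95 in RNA-seq. The difference was 1.51 for each of these pairs and 1.41 for nars and nars2. With nested models summed as FPKM the alanine difference was 0.75, a sum that was not made for the other pairs.

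The other 2 pairs differed less or in the other direction. The difference was 0.55 for yars and yars2. mars over mars2 was lower by footprints, 1.72 and 1.21 in Ribo-seq, against 3.57 and 4.04 in RNA-seq (difference -0.96). For each of the 6 pairs the exact permutation p was 0.333, the smallest that this test can give, and the order among pairs is a description. Model lengths are alike for the alanine pair and differ more in others, up to 2450 nt for vars and 4435 nt for vars2.

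**Figure D5:**
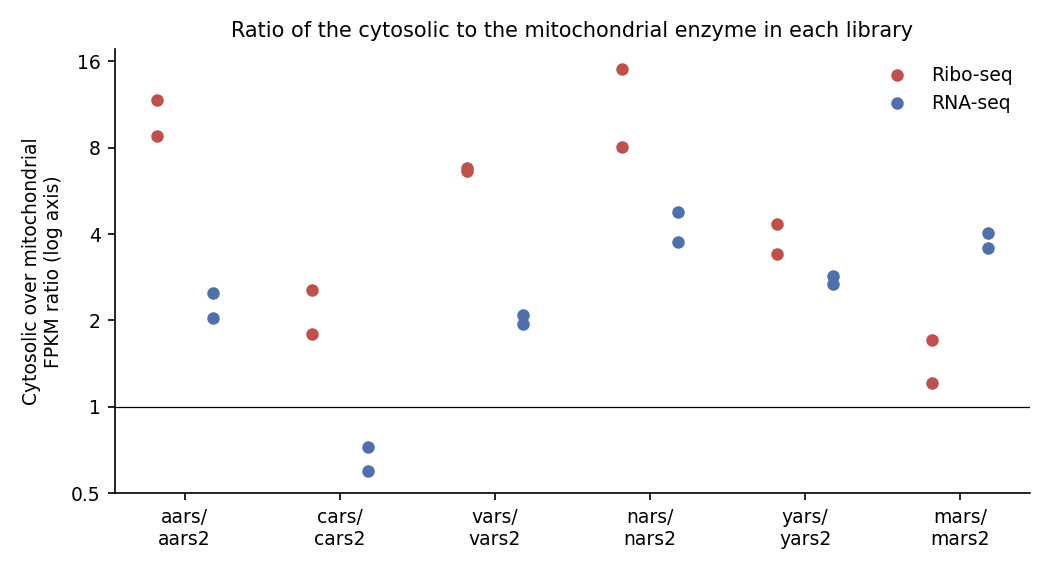
Ratio of cytosolic over mitochondrial FPKM (log axis) for the 6 amino acids with both genes compared, 1 point for each library. The alanine pair, at the left, has footprint ratios of 11.7 and 8.82 above RNA ratios of 2.49 and 2.04, and the methionine pair, at the right, is the one with footprint ratios below its RNA ratios.

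Proteins that work with synthetases were described next. Of 7 tested cofactors and tRNA-handling genes, 4 were called higher, 1 lower and 2 neither, where 52.4% of named and 23.9% of all tested models were called higher. The median log2 difference was 0.78, close to that of named models. aimp2, a scaffold of the complex that holds several cytosolic synthetases, had 10.8 and 18.6 FPKM in Ribo-seq, against 9.20 and 8.31 FPKM in RNA-seq (difference 1.38; limma, adjusted p = 0.0059). eef1e1, another component of that complex, had a difference of 0.78 (limma, adjusted p = 0.022). ptrh2, a peptidyl-tRNA hydrolase, had the largest at 3.53, and trnt1, which adds the CCA end to tRNAs, was lower at -1.13 ± 0.26 (SE; limma, adjusted p = 0.028; model of 501 nt).

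Factors of mitochondrial translation, the process that aars2 serves, had log2 differences from -0.38 to 2.36, and the mitochondrial synthetases from -0.67 to 1.11. The list of these factors also holds enzymes that modify tRNA and a mitochondrial transcription factor that was called higher. Of its 15 tested genes, 5 were called higher, 0 lower and 10 neither, with a median of 0.33. The 33.3% called higher is below the 52.4% of named models and above the 23.9% of all tested models. tufm, the mitochondrial elongation factor Tu, had 38.1 and 52.3 FPKM in Ribo-seq, against 14.5 and 13.7 FPKM in RNA-seq, a log2 difference of 2.36 ± 0.13 (SE; limma, adjusted p = 0.0039). Its exchange factor tsfm had a difference of 1.54. The smallest called differences were 0.87 for gfm1, the mitochondrial elongation factor G, and 0.83 for gatb, a subunit of the enzyme that makes mitochondrial glutaminyl-tRNA. These values were given for the list as a whole and no difference between lists was tested.

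The models nearest to each enzyme over the 4 libraries were found by Euclidean distance of the log2 values among 5704 other named models. For aars they were sox1, a neural transcription factor, at a distance of 0.09, then eftud2, a splicing factor, npl, sccpdh and nop56, a nucleolar protein, all within 0.19. For aars2 they were rprd1b, mnt, vegfa, the vascular growth factor, sufu, of hedgehog signalling, and tgds, at distances of 0.20 to 0.23. sox1 had 19.1 and 32.5 FPKM in Ribo-seq, against 13.5 and 12.8 FPKM in RNA-seq, and rprd1b had 1.83 and 4.27 FPKM, against 5.45 and 5.44 FPKM. Over only 4 libraries such likeness describes level and difference alone.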

How the data were processed

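The deposited table gives, per the file headers, FPKM of 4 libraries and a length for each of 93896 models; the authors' table has no gene names. Libraries were prepared with a TruSeq Ribo Profile kit, per the labels' protocols, and TopHat2 2.1.0 and Cufflinks 2.2.1 are listed, with no role, in the submitters' processing notes. Build, annotation and strand use: not given in the sources used here. Low values did not step in whole reads, so no depth or counting error could be stated. Exact zeros are called listed at 0.

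Names came from RefSeq (ASM223467v1) where the spans of model and gene overlapped by at least 50% of both; 7241 models had a symbol. The build was inferred: 2137 model ends lay within 10 bp of a RefSeq gene end, against 62 and 58 after a shift of 20 kb either way. Starts in the authors' table count from 0 (6724 models have a span equal to their length on that count, 0 counting from 1) and were converted to count from 1; 71.6% of models overlap another. Scaling factors were 0.651 and 0.925 for Ribo-seq and 1.40 and 1.32 for RNA-seq. The fit used limma 3.58.1 (R 4.3.3, with lmFit, eBayes with trend and assay as the term) on log2 of scaled FPKM plus 1. Benjamini-Hochberg adjustment ran over all tested models. The fit understates differences of low models. It was tried on simulated data that held no scaling differences between libraries and no changed models at low levels. Other steps used Python 3.11.15, numpy 2.4.6 and pandas 2.3.3, and figures matplotlib 3.10.9. The ratio was tested by exact permutation of libraries. Alternatives were other scalings, pseudocount, filters, replicate block, 1 model per gene and each library left out. Members and lists were chosen with earlier results of these data known. 1 gene of the synthetase lists is not reported here, and list counts and medians are without it. Named were both enzymes, the other tested synthetases, and up to 2 called genes at each end of other lists. Also named were atf4, models overlapping the enzymes, and the 5 nearest patterns. As level neighbours, qars, lars, rars2, cars2, iars2, kars and nars2 were picked after their values were seen.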

Additional observations from a re-analysis of the deposited data

How the results depend on the processing

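aars kept its direction in every setting tried and lost its call in 3: with FPKM as deposited the difference was 0.95, and without single libraries it ranged from 1.57 to 1.85, losing the call without either RNA-seq library. aars2 was below 0 and uncalled in every setting except with nested models summed as FPKM (1.03, called; the 243 nt model then weighs as much as the long one), and ranged from -0.54 to -0.01 without single libraries; at a mean FPKM of at least 5 it was not tested. The aars to aars2 difference stayed positive, from 0.75 to 2.15, and from 1.86 to 2.12 without single libraries. With FPKM as deposited 2425 models were called higher, 2 cytosolic and 0 mitochondrial synthetases higher and 2 mitochondrial lower, and 4 genes of the other lists higher and 5 lower (main counts 12116 models higher, 14 cytosolic and 4 mitochondrial synthetases higher and 1 mitochondrial lower, and 19 and 2 other genes). With upper quartile scaling 1 mitochondrial synthetase was higher and 2 lower, and 4 other genes lower, beside 9039 models higher and 19612 lower. With a pseudocount of 0.1, 0 mitochondrial synthetases were lower, beside 15168 models. With no filter, where all 93896 models were tested, 28801 models, 2 mitochondrial synthetases and 1 other gene were lower. At a mean FPKM of at least 5, 1 mitochondrial synthetase and 9571 models were higher, and 4477 models and 1 other gene lower. Fewer models were tested at that limit, so these counts cannot be set directly against the main ones. The replicate number as a block changed no call of aars or aars2, with differences of 1.71 and -0.28 (limma, adjusted p = 0.014 and 0.38). It left 1 mitochondrial synthetase higher and 0 lower and 1 other gene lower, beside 11131 models higher and 16488 lower. The ratio's paired exact permutation p was 0.5, the smallest p that 2 pairs can give. The replicate numbers share no stated origin (r = 0.07 between assays). With 1 model per RefSeq gene 5604 models were higher and 1240 lower, with fewer models tested, and 2 mitochondrial synthetases lower. Without single libraries the counts ranged from 1638 to 14700 and 9279 to 18988 for all models higher and lower, 4 to 15 for cytosolic synthetases higher, 0 to 4 for mitochondrial ones higher and 0 to 1 lower, and 3 to 22 for other genes higher and 0 to 2 lower. Signs turned for nars2 (-0.17), iars2 (-0.14), kars (-0.033) and mars (-0.54) with FPKM as deposited, for mars (-0.19) with upper quartile scaling, and for sars2 without Ribo-seq replicate 1 or RNA-seq replicate 1 (range without single libraries -0.21 to 0.17). Causes were not tested beyond those named. Unknown depth limits aars2 most, the lower of the 2.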

Other observations

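Genes of the amino acid response, a programme that transcription factor Atf4 runs when amino acids or charged tRNAs are short and that includes synthetase genes in mammals, were followed as a further list. Of 14 tested, 7 were called higher in Ribo-seq, 1 lower and 6 neither (limma, adjusted p below 0.05), near the 52.4% of named models and above the 23.9% of all tested models called higher, with a median log2 difference of 1.29. psat1, an enzyme of serine synthesis, had 18.4 and 30.6 FPKM in Ribo-seq, against 7.99 and 7.86 FPKM in RNA-seq (difference 2.21; limma, adjusted p = 0.0039), and slc3a2, the heavy chain of amino acid transporters, had a difference of 2.09. slc7a5, a light chain that pairs with it, had a difference of 0.87. atf4 itself had 16.1 and 30.3 FPKM in Ribo-seq, against 36.4 and 35.1 FPKM in RNA-seq. Its difference of 0.11 was not called (limma, adjusted p = 0.64). chac1, a glutathione-degrading enzyme, was lower, with 13.8 and 16.9 FPKM in Ribo-seq, against 41.6 and 46.2 FPKM in RNA-seq (difference -0.68; limma, adjusted p = 0.032).

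Of 14 symbols listed for alanine metabolism and transport, only 3 were found in RefSeq, and the other symbols were not covered. All 3 had a tested model and were called higher, where 23.9% of all tested and 52.4% of named tested models were. slc1a4, a transporter of alanine, serine and cysteine, had 41.1 and 70.8 FPKM in Ribo-seq, against 20.4 and 15.8 FPKM in RNA-seq, a log2 difference of 2.31 on a model of only 667 nt. slc1a5, its neutral amino acid transporter relative, had a difference of 1.30, and agxt2, a mitochondrial aminotransferase, 0.86.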
